A study of Mus musculus with 12 samples.

Results

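Single metabolic inhibitors were compared with no drug in 8 of the 12 ATAC-seq libraries of a study of mouse granulocyte-monocyte progenitors whose differentiation is held back by ER-HOXA9, the leukaemia transcription factor HOXA9 joined to the estrogen receptor. The 4 libraries with an inhibitor were 2 after 2 days in 5 uM mercaptopurine (6MP) and 2 after 2 days in 5 uM cerulenin (CER). The 4 without drug were 2 from untreated cells at the start (Day0) and 2 from cells kept for 2 days in the solvent DMSO (Vehicle). They were chosen from the sample labels alone, and the labels give 2 biological replicates for each group. All cells came from C57BL6 bone marrow, carried ER-HOXA9 and grew in serum, glutamine, stem cell factor and beta-estradiol, which keeps the fusion protein active. The no-drug set therefore joins 2 time points, while every inhibitor library is from day 2.

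Mercaptopurine is a purine analogue that is turned into its active nucleotide by the salvage enzyme Hprt. Its nucleotides block Ppat, the first enzyme of purine synthesis, and are incorporated into DNA. Cerulenin binds the condensing site of fatty acid synthase, Fasn. ATAC-seq marks open chromatin by where the Tn5 transposase inserts adapters, so a peak shows that DNA was reachable and not which factor was bound. In bulk cells, a site open in fewer cells and a site less open in each cell cannot be told apart.

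The promoters of 4 genes tied to these drugs are shown because each was open in all 8 libraries and had no change past the threshold below. Each line is 5′ to 3′ on the gene's strand, 250 bases before to 50 after the start, from the RefSeq table for GRCm38.p6. Hprt lies on the plus strand at chrX:52987828-52988127 and Impdh2, which makes the guanine branch of purines, on the plus strand at chr9:108560186-108560485. Fasn lies on the minus strand at chr11:120824498-120824797 and Hmgcs1, an early enzyme of sterol synthesis, on the plus strand at chr13:119690101-119690400. Capitals mark 4 motifs searched on both strands: the E-box CACGTG, the CCAAT box, the GC box GGGCGG and TCACCCCAC, the core of the classical sterol element.
Hprt: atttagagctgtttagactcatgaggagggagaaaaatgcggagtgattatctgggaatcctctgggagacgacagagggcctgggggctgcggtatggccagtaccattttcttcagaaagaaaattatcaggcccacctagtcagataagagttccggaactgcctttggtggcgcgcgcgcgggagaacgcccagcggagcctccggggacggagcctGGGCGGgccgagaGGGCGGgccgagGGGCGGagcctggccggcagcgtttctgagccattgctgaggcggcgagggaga
Impdh2: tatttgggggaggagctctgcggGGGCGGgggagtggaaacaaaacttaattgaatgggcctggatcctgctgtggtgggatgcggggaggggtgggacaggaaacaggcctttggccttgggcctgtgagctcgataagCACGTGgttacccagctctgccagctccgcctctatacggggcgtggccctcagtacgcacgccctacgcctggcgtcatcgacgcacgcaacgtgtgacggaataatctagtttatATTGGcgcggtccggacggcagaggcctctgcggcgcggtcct
Fasn: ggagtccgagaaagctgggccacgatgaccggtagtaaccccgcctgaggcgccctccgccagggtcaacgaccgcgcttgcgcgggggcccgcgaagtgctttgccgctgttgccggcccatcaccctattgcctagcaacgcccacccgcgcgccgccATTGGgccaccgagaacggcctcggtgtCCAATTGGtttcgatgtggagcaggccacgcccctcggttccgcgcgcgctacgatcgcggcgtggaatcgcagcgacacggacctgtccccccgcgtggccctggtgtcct
Hmgcs1: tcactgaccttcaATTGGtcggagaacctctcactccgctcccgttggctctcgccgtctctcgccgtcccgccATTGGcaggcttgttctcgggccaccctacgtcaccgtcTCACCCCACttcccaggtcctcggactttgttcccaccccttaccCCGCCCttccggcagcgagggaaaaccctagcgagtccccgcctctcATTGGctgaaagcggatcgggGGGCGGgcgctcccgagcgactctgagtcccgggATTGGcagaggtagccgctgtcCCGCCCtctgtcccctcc
Hprt held 3 GC boxes. Impdh2 held 1 E-box, 1 CCAAT box and 1 GC box. Fasn held 3 CCAAT boxes, a pair of which overlap on opposite strands. Hmgcs1 held 4 CCAAT boxes, 3 GC boxes and 1 TCACCCCAC. Of 21263 promoter windows of this length, 7.84% held the E-box, 38.2% the CCAAT box, 46.2% the GC box and 0.536% TCACCCCAC. These letters are matches only.

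The inhibitor libraries had fewer called peaks on average, but the sets overlapped. Day0 had 53105 and 44447 peaks, Vehicle 51721 and 53839, 6MP 43144 and 46211, and CER 50549 and 42651. The mean was 45639 ± 3633 with an inhibitor against 50778 ± 4311 without (SD, n = 4 each), with an exact two-sided permutation p of 0.114, where 0.0286 is the smallest this design can give. The highest inhibitor library, CER replicate 1, lay above the lowest no-drug library, Day0 replicate 2. Bases covered were 39.3 ± 5.61 Mb against 45.1 ± 4.56 Mb (exact permutation p = 0.171, n = 4 each).

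Depth and enrichment also overlapped between the sets. The smallest background of a library, used as its depth, was 3.89 ± 0.677 fragments per position with an inhibitor and 3.78 ± 0.923 without (exact permutation p = 0.771, n = 4 each). The height of a peak at its summit, divided by that background, is called summit signal here and is given as log2. Its median over the regions common to all 8 libraries was 4.79 and 4.86 in Day0, 5.02 and 5.06 in Vehicle, 4.04 and 5.12 in 6MP, and 5.00 and 4.49 in CER. Both the lowest and the highest library were 6MP, and the sets differed by -0.27 (exact permutation p = 0.371, n = 4 each). Each library was therefore centred on this median, and all log2 signals below are relative to it. Regions near 11 of the 12 markers set for granulocyte-monocyte progenitors, such as Prtn3, Ctsg, Kit, Cd34 and Cebpa, were open in all 8 libraries. No region was assigned to Elane, whose neighbour Prtn3 had 3. Of 21887 protein-coding genes, 13788 had a region called in all 8, as did 11 of the 12 genes listed as B cell markers. The count therefore does not mark the cells as progenitors.

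**Figure D1:**
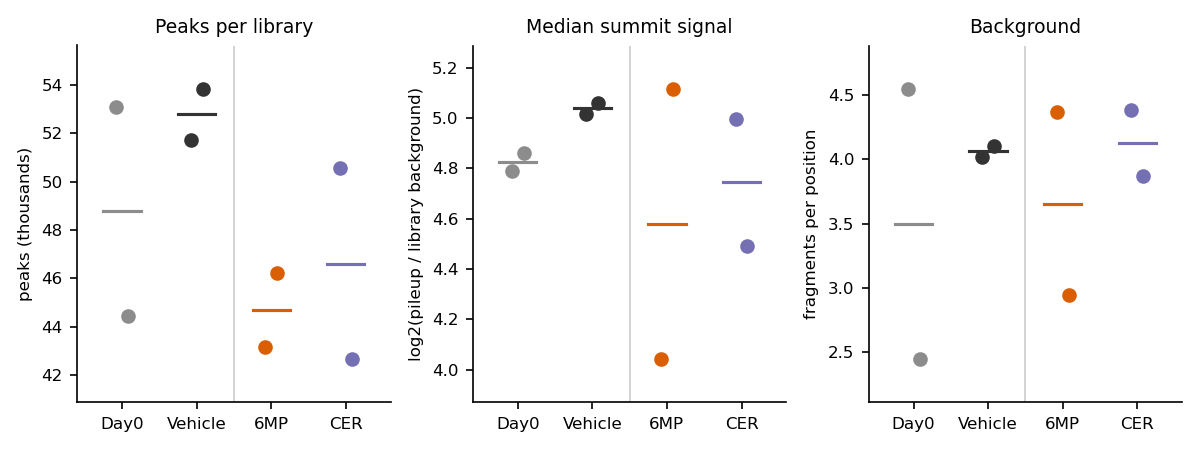
Peaks per library, median summit signal and background for Day0, Vehicle, 6MP and CER; points are libraries, short bars are group means, and the vertical axes do not start at 0. The inhibitor libraries, right of the vertical line, span 42651 to 50549 peaks and overlap the 44447 to 53839 of the libraries without drug.

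Which stretches were called did not separate the sets beyond the test. The Jaccard index, the base pairs covered in both of 2 libraries over those covered in either, averaged 0.00944 more within a set than between sets (exact one-sided permutation p = 0.143). CER replicate 1 was most like Vehicle replicate 1, at 0.763, and Day0 replicate 2 was most like 6MP replicate 2, at 0.727. The closest library belonged to the same set for 4 of the 8.

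Across the genome, neither a gain nor a loss of accessibility shared by both inhibitors passed the test. Peaks of the 8 libraries formed 65369 regions, of which 33928 (51.9%) were called in all 8 and could be compared by signal. With limma and Benjamini-Hochberg adjustment, 0 regions (0.0%) passed an adjusted p of 0.05, the lowest adjusted p was 0.648, and 1558 (4.59%) had an unadjusted p under 0.05. The 4 inhibitor libraries lay wholly above the 4 others at 474 regions (1.4%) and wholly below at 407 (1.2%), 2.6% in both directions. The largest differences were 0.95 up and -0.84 down, so no fitted difference reached 1 log2 unit.

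The error limits how much change these libraries could hide. For both inhibitors together, the 95% interval of the difference lay within 1 log2 unit of 0 at 99.3% of the regions, and within 1.5-fold at 79.9%. Strong regions were held tighter than weak ones: at promoters, defined as regions within 1000 bases of an annotated start, the interval lay within 1.5-fold at 96.2% of 8623 regions, against 73.0% of 11875 intergenic ones. The limits were looser for each inhibitor alone: within 1.5-fold at 64.7% of all regions for 6MP and 61.9% for CER. Fitted differences exceeded 1 log2 unit at 6 regions for 6MP and 17 for CER. Promoters made up 25.4% of the regions tested and 11.2% of the 881 whose groups did not overlap. Their median difference was 0.03, beside 0.01 over all regions.

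**Figure D2:**
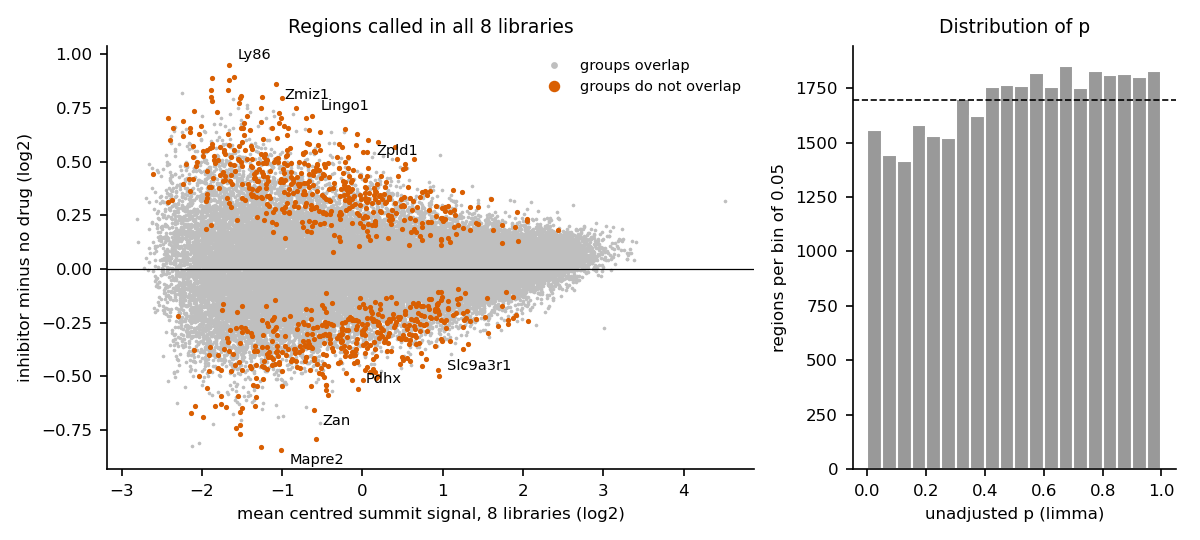
Left, inhibitor minus no drug (log2) against mean centred summit signal for the 33928 regions called in all 8 libraries, orange where the sets do not overlap. Nearest genes are named for the 4 lowest p in each direction among the orange regions. Right, unadjusted limma p in bins of 0.05, with a dashed line at an even spread; the lowest bin holds 1558 regions and does not rise above the line.

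The regions with the lowest p among those higher with an inhibitor lay mostly far from promoters, and none passed the adjustment. Near Ly86, which encodes a partner of a Toll-like receptor homologue on immune cells, a region at chr13:37289963-37291538 had signals of -2.17 and -2.15 in Day0, -1.81 and -2.40 in Vehicle, -1.58 and -1.0 in 6MP, and -1.02 and -1.12 in CER. All 4 inhibitor libraries lay above the others, by 0.95 ± 0.22 (SE; limma, unadjusted p = 0.000122, adjusted p = 0.648). It lies 54486 bases from the nearest end of the gene, and its pileups of 16 to 69 fragments make it a weak peak.

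A region at chr14:25312540-25314117 lies 144428 bases from the nearest end of Zmiz1, a co-regulator of transcription. It had -1.42 and -2.06 in Day0, -1.38 and -1.14 in Vehicle, -0.74 and -0.50 in 6MP, and -0.65 and -0.66 in CER. The sets did not overlap, and the difference was 0.86 ± 0.19 (SE). The difference was 1.10 from Day0 alone and 0.62 from Vehicle alone. A separate region close by, at chr14:25314811-25315376, went the other way. It was called in Day0 (41 and 20 fragments) and Vehicle (34 and 38) and in no 6MP or CER library. A region within Arhgef7, an exchange factor for Rac and Cdc42, at chr8:11767193-11768264 had -0.71, -0.32, -0.60 and -0.54 without drug. Both 6MP libraries were higher there, at 0.29 and 0.34, than both CER libraries, at -0.15 and -0.03, and all 4 stood above the controls.

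Hdac4, a class IIa histone deacetylase, was the only gene with 2 regions among these 15. One inside the gene, at chr1:92034176-92034995, differed by 0.75 ± 0.18 and one outside it, at chr1:92225007-92225978, by 0.54 ± 0.13 (SE). Inside the gene of Gsr, glutathione reductase, and in the annotated body of Trub2, a pseudouridine synthase, the differences were 0.51 and 0.57. At the Trub2 region CER replicates, at 0.98 and 0.86, stood above 6MP, at 0.29 and 0.61, and the controls ran from 0.03 to 0.22. Lingo1 (0.71), Zpld1 (0.60), Dagla (0.59), Zc3hav1 (0.70), Ntrk2 (0.64), Tcf4 (0.89), Zfp532 (0.70) and Colec12 (0.80) complete the 15, each with an adjusted p no lower than 0.648. At the Hdac4 region inside the gene the difference was 0.96 from Day0 alone and 0.54 from Vehicle alone. At Zc3hav1 these were 1.02 and 0.38, and at Dagla 0.81 and 0.37. The difference from Day0 was also the larger at Ly86, Zmiz1 and Zpld1. At the other regions of the 15 the one from Vehicle was the larger, as at Ntrk2 (0.42 and 0.85). Day0 also differs from the inhibitor libraries by 2 days of culture.

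Among those lower with an inhibitor, a region within Mapre2, which encodes a protein of microtubule ends, had the lowest p. Its signals were -0.64 and -0.20 in Day0, -0.61 and -0.93 in Vehicle, -1.17 and -1.31 in 6MP, and -1.46 and -1.80 in CER, a difference of -0.84 ± 0.19 (SE; limma, unadjusted p = 0.00011, adjusted p = 0.648). The sets do not overlap, but Vehicle replicate 2 and 6MP replicate 1 are close. At Mapre2 the difference was -1.02 from Day0 alone and -0.66 from Vehicle alone. A stronger region within Slc9a3r1, a scaffold for membrane transporters, at chr11:115172827-115174411 held 1.25, 1.01, 1.28 and 1.25 without drug and 0.47, 0.94, 0.74 and 0.63 with one. Its difference was -0.50 ± 0.12 (SE), on pileups of 100 to 326 fragments, and was -0.43 from Day0 alone and -0.57 from Vehicle alone.

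Among the lower regions, Pdhx and Ak1 are metabolic genes, each read from a peak outside the gene. Near Pdhx, a subunit of the pyruvate dehydrogenase complex, a region 45316 bases away held 0.17 to 0.33 in the 4 controls, -0.02 and -0.16 in 6MP, and -0.64 and -0.54 in CER. Beside Ak1, adenylate kinase, a region 3100 bases away held 0.03 to 0.24 in the controls and -0.77 to -0.16 with an inhibitor, a difference of -0.52 ± 0.15 (SE). The others were Stk32c (-0.83), Thap12 (-0.79), Cby3 (-0.77), Zfp516 (-0.73), Zan (-0.66), Nol4l (-0.52), Dhrs3 (-0.50), Capn5 (-0.47), Pan3 (-0.47), Camk2n1 (-0.45) and Nisch (-0.44). None of these passed the adjustment.

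Regions can also gain or lose a called peak altogether, which the signal test does not see. Only 8 of the 65369 regions (0.0122%) were called in all 4 inhibitor libraries and none of the controls, and 150 (0.229%) were called in all 4 controls and no inhibitor library. The lost peaks were weak: their median pileup was 20 fragments, against 104 at regions called in all 8, and 141 of the 150 stayed under 50 fragments in every control. The libraries with an inhibitor had fewer peaks in all, and the part of that in the count of lost peaks was not tested. At promoters lay 3 of the lost regions and 0 of the gained ones. Leaving out 1 library, which loosens the rule, moved the total of 158 to 245 (Day0 replicate 1), 559 (Day0 replicate 2), 273 and 299 (Vehicle replicates 1 and 2), 255 and 296 (6MP replicates 1 and 2), 576 (CER replicate 1) and 224 (CER replicate 2).

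The 8 gained regions were near or in Ralgds, Tmem86a, Fabp5, Phyh, Kdelr3, Diaph2, Rassf5 and Ccl6. At Ralgds, which activates Ral downstream of Ras, a region within the gene at chr2:28523814-28524160 had pileups of 79 and 137 fragments in 6MP and 166 and 95 in CER, and no peak in Day0 or Vehicle. Outside the comparison, it was also called in LSD1i replicate 2, at 170, and in both Combo libraries, at 228 and 238, but not in LSD1i replicate 1, where LSD1i is 200 nM GSK-LSD1 alone and Combo all 3 drugs. Beside Tmem86a, a lysoplasmalogenase, a region at chr7:47055829-47056482 was called in the same 7 libraries, with 46, 54, 60 and 37 fragments in 6MP and CER. In 6MP and CER its summits reached only 1.95 to 2.87 times the local background, and those at Ralgds 2.78 to 3.37 times. The median at regions called in all 8 was 6.81. An absent call in the controls therefore does not show an absence of fragments there.

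Those 7 libraries are the ones numbered 6 to 12 in the deposited names, and the 5 without the peak are numbered 1 to 5. All 4 controls carry numbers 1 to 4 and all 4 inhibitor libraries numbers 7 to 10, so treatment and library number cannot be told apart within the comparison. The remaining gained peaks were low, with 16 to 39 fragments in the inhibitor libraries. The one near Rassf5, at 21 to 26 fragments, was the only region called in all 6 libraries with a metabolic inhibitor, Combo included, and in none of the other 6.

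The reverse pattern, a peak in all 6 libraries without a metabolic inhibitor and none of the 6 with one, held at 6 regions, in or near Msi2, Tgm2, Eml6, Rabgap1l, Sgip1 and Fam163b. The region within Msi2, an RNA-binding protein of blood progenitors, at chr11:88594652-88595490 had 79 and 51 fragments in Day0, 86 and 78 in Vehicle and 82 and 94 in LSD1i. Its summits reached only 1.75 to 2.27 times the local background. A higher example, inside Brd2, a bromodomain protein of active chromatin, at chr17:34117184-34117622 had 286, 181, 323 and 322 fragments in the controls and no peak elsewhere, but at 1.47 to 1.65 times the local background. At such low enrichment an absent call does not show an absence of fragments.

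The 5 widest lost regions were near or in Hmgb3, Gpr33, Mpzl1, Ephb2 and Sik3, 1494 to 1864 bases across. Their pileups in the controls ran from 11 to 31 fragments. All 5 were also called in at least 1 Combo library, which contains both inhibitors. Of the 150 lost regions, 69 were called in both Combo libraries and 32 in neither.

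**Figure D3:**
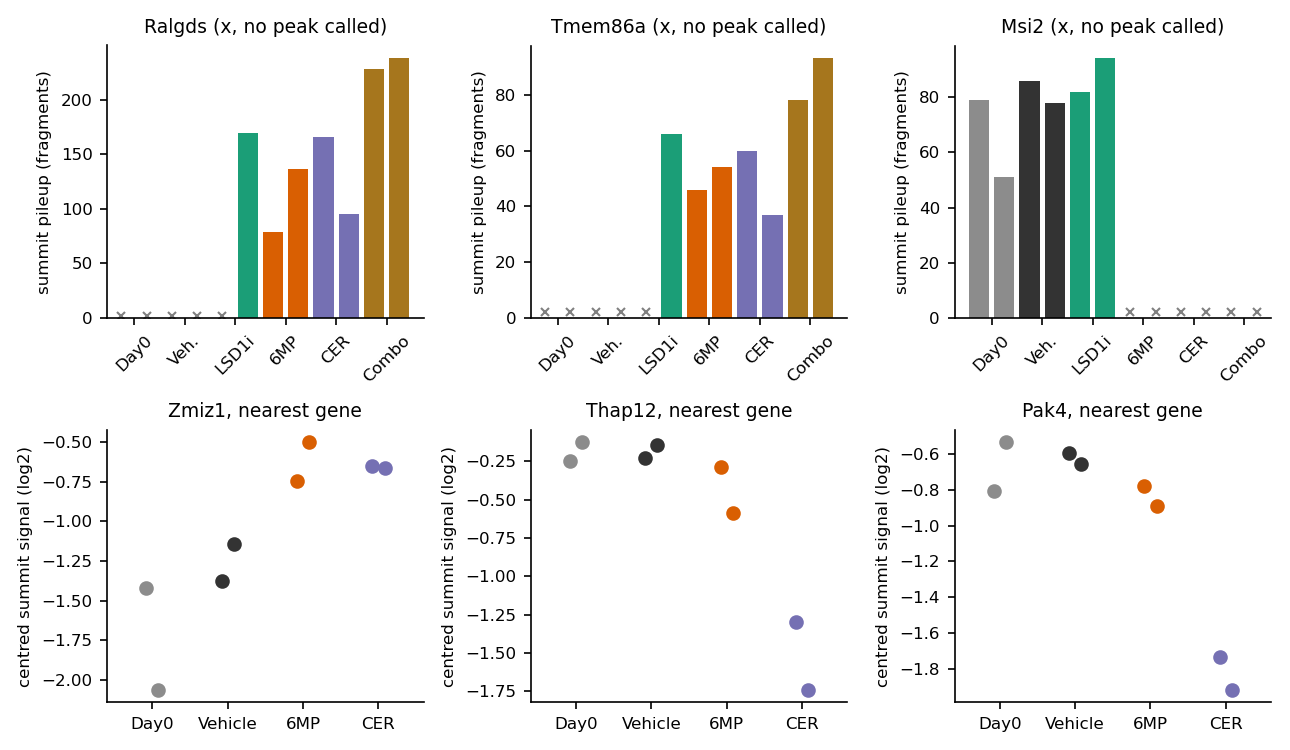
Top, summit pileup in fragments in all 12 libraries at the regions of Ralgds, Tmem86a and Msi2, where a cross marks a library with no called peak. Bottom, centred summit signal (log2) by library for the regions near Zmiz1, Thap12 and Pak4; both CER libraries lie lowest at Thap12 (-1.30 and -1.74) and Pak4 (-1.74 and -1.92).

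Chromatin at the genes that handle the drugs or are their targets did not change past the test. Of 14 such genes, 13 had a region called in all 8 libraries; Tpmt, which inactivates mercaptopurine, had only a region that was not. The 38 regions tested had 0 called and a median difference of 0.06, beside 0.01 over all regions. At the Hprt promoter the signals were 0.89 and 0.87 in Day0, 1.23 and 1.24 in Vehicle, 0.86 and 1.22 in 6MP, and 0.96 and 1.10 in CER. The inhibitor libraries spanned the same range as Day0 and Vehicle, and the difference was -0.02 (95% interval -0.28 to 0.23).

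Ppat, the enzyme that mercaptopurine nucleotides block, had promoter signals of 3.10 to 3.53 in the 4 inhibitor libraries and 3.17 to 3.44 in the controls. Its difference was 0.05 (95% interval -0.32 to 0.42). The Impdh2 promoter held 1.63, 1.63, 1.61 and 1.67 without drug, 1.58 and 1.69 in 6MP, and 1.79 and 1.83 in CER, a difference of 0.09 (95% interval -0.15 to 0.33). Both CER libraries were above all the others there, by less than the interval. Both promoters of Impdh1, the paralogue, differed by 0.10 and 0.01.

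The promoter of Nt5c2, a nucleotidase that takes phosphate off purine and thiopurine nucleotides, varied more within groups than between them. It held 2.23 and 2.33 in Day0, 2.41 and 1.32 in Vehicle, 1.45 and 2.56 in 6MP, and 2.52 and 1.79 in CER. The 3 low values are from Vehicle replicate 2, 6MP replicate 1 and CER replicate 2, and the difference between the sets was 0.01 ± 0.20 (SE).

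The target of cerulenin, Fasn, had promoter signals of 2.48 and 2.37 in Day0, 2.52 and 2.21 in Vehicle, 2.1 and 2.84 in 6MP, and 2.50 and 2.66 in CER. The 6MP libraries were at once the lowest and the highest, and the difference was 0.13 (95% interval -0.18 to 0.45). Hmgcs1 differed by less than 0.01 (95% interval -0.34 to 0.34). Acly, which supplies acetyl-CoA for both pathways, differed by 0.06, and Scd2, a desaturase, by 0.14. The promoter table holds no start for Scd2, so the region lies at an end of the annotated gene and whether that end is its start was not resolved. The promoters of Srebf1 and Srebf2, the transcription factors that switch on lipid and sterol genes, all had positive differences, 0.11 to 0.20, with every interval reaching below 0.

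**Figure D4:**
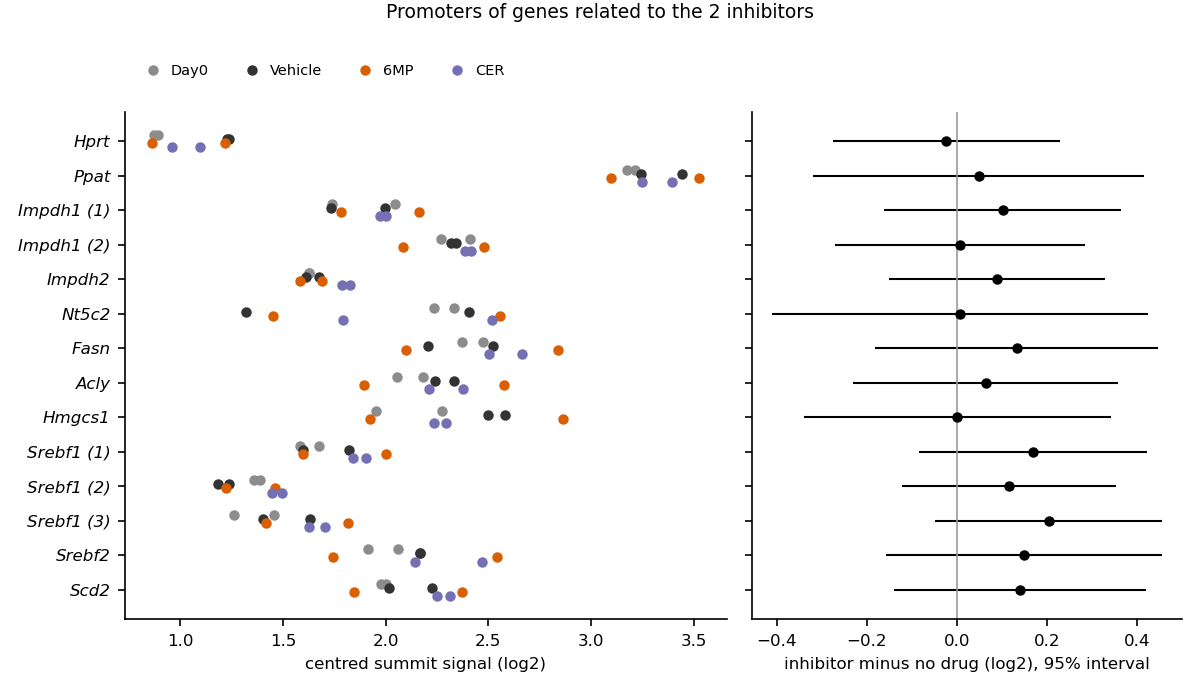
Left, centred summit signal (log2) in each of the 8 libraries at 14 promoter or gene-end regions, numbered where a gene has several. Right, the difference with its 95% interval, from limma; all 14 intervals include 0.

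Away from promoters, 3 regions of this list are given, picked after their values were seen. Of the 38 regions of the list, 1 was higher and 1 lower at an unadjusted limma p under 0.05, 5.26% beside 4.59% of all. The sets did not overlap at 1 higher and 1 lower region, 5.26% beside 2.6% of all. A region within Ppat at chr5:76928697-76929981 held -1.73 and -1.76 in Day0, -1.56 and -2.01 in Vehicle, -0.88 and -0.81 in 6MP, and -1.64 and -0.80 in CER. In 6MP and CER, 3 of the 4 libraries were high and CER replicate 1 was level with the controls (difference 0.73 ± 0.21, limma adjusted p = 0.677). Near Impdh1 a region at chr6:29231750-29233325 was lower in all 4 inhibitor libraries, 0.33 to 0.44 against 0.57 to 0.76, with a difference of -0.33 ± 0.12 (adjusted p = 0.944). Within Nt5c2 the inhibitor libraries were all higher, -0.89 to -0.50 against -1.14 to -0.91, by 0.29 ± 0.17 (adjusted p = 1.0).

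No wider pathway list had a called region either. None of the 26 lists, with 628 of 636 genes in the annotation and 1739 regions tested, had a called region in either direction, and their medians ran from -0.06 to 0.06, beside 0.01 over all regions. Purine synthesis and salvage had a median of 0.01 over 89 regions, of which 6 were lower and 2 higher at an unadjusted p under 0.05, 8.99% of its regions beside 4.59% of all. Fatty acid synthesis and elongation had 0.05 over 90 regions, with Acsl1, which activates fatty acids, highest by p (0.58 ± 0.18) and Mecr, of mitochondrial fatty acid synthesis, lowest (-0.23 ± 0.12). Sterol synthesis and uptake had 0.03 over 71, of which 6 were higher and 3 lower at that p (12.7%), with Mylip, which marks the LDL receptor for degradation, at 0.29 and Abca1, a cholesterol exporter, at -0.43. None of these passed the adjustment.

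Lists for stress and growth responses also had 0 called regions. The median was 0.02 over 88 regions of p53 targets, 0.03 over 96 of the integrated stress response, 0.03 over 96 of mTOR and growth signalling, and -0.01 over 112 of cell cycle and DNA replication. The lowest p on the higher side was near Pmaip1, a p53 target that promotes cell death (0.34), near Slc7a11, the cystine transporter (0.46), at a promoter of Tfeb, a regulator of lysosome genes (0.61), and near Cdk6, a kinase of the cell cycle (0.32). On the lower side it was near Perp, a p53 target (-0.36), near Slc3a2, the partner chain of amino acid transporters (-0.38), within Rptor, a subunit of mTOR complex 1 (-0.83 ± 0.27), and within Rbl2, a relative of the retinoblastoma protein (-0.30). The Rptor region is weak, at 12 to 42 fragments, and 6MP replicate 1 lay above the 4 controls there. At the Tfeb region the controls ran from -1.57 to -1.45 and the inhibitor libraries from -1.0 to -0.81, without overlap, and limma's adjusted p over all regions was 0.713.

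Lists of myeloid maturation had 0 called regions. The primary granule list, of proteins such as Mpo made at the progenitor stage, had a median of 0.01 over 32 regions, neutrophil maturation 0.06 over 51, monocyte and macrophage 0.05 over 89, and progenitor and self-renewal -0.02 over 192. The monocyte and macrophage list had 10 regions higher and 1 lower at an unadjusted p under 0.05, the lower one near F13a1 (-0.48). These were 12.4% of its regions, beside 4.59% of all. At that p, progenitor and self-renewal had 9 higher and 10 lower (9.9%), and neutrophil maturation 5 higher and 0 lower (9.8%). Primary granule had 1 higher and 0 lower (3.1%). At the Camp promoter, a granule gene of later neutrophils, the controls ran from -1.81 to -1.07 and the inhibitor libraries held -1.36 and -0.67 in 6MP and -0.74 and -0.42 in CER (0.66 ± 0.21). Those sets overlap.

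Lists that mark other cell types, from erythroid, megakaryocyte, mast, B, T and NK, dendritic and stromal cells, had 0 called regions and medians from -0.06 to 0.05. The lowest was B cells, over 28 regions, with the Cd79a promoter at -0.44 ± 0.15. Of the 28, 1 was higher and 3 lower at an unadjusted p under 0.05, 14.3% beside 4.59% of all regions. Among the 12 progenitor markers, the Ms4a3 promoter held -0.58 and -0.54 in Day0, -1.05 and -1.12 in Vehicle, -0.58 and -0.25 in 6MP and -0.31 and -0.42 in CER, so that Day0 lay nearer the inhibitor libraries than Vehicle did. Ms4a3 is a single example, chosen with earlier results known, and does not stand for the other markers, whose signals are not shown.

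**Figure D5:**
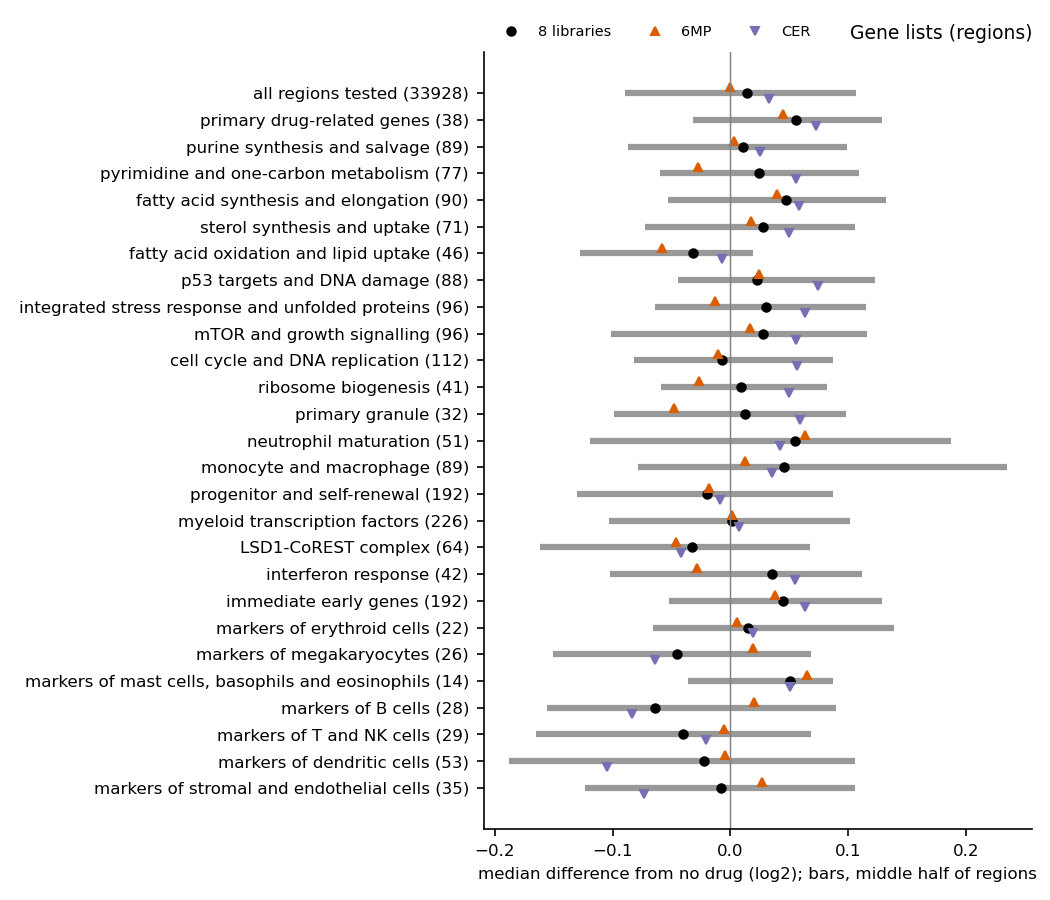
Median difference from no drug (log2) for each gene list with its number of regions; black circles use the 8 libraries in 2 sets, triangles each inhibitor against the same 4 controls, and grey bars run from the 25th to the 75th percentile. The black circles of the lists lie between -0.06 and 0.06.

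Taken apart, the inhibitors differed in how many regions passed: 0 of 33928 (0.0%) for 6MP and 2 (0.00589%) for CER, both lower. These counts differ with the controls used, as given below. The comparisons share their 4 controls, so their values are not independent. At an unadjusted p under 0.05 there were 1837 regions (5.41%) for 6MP and 2714 (8.0%) for CER. Near Thap12, which encodes a THAP-domain protein, an intergenic region at chr7:98727786-98728926 held -0.25 and -0.13 in Day0, -0.23 and -0.14 in Vehicle, -0.29 and -0.58 in 6MP, and -1.30 and -1.74 in CER. CER lay below everything else, by -1.33 ± 0.19 from the controls (SE; limma, adjusted p = 0.00288), and 6MP differed by -0.25 ± 0.19.

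Just beyond an end of Pak4, a kinase of the actin cytoskeleton, a region at chr7:28557590-28558724 held -0.81 to -0.54 in the controls, -0.78 and -0.89 in 6MP, and -1.74 and -1.92 in CER. The CER difference was -1.18 ± 0.20 (SE; limma, adjusted p = 0.0486). Pileups were 26 to 124 fragments at Thap12 and 23 to 87 at Pak4. The Thap12 call was lost with scaling by depth only (adjusted p = 0.527) and without CER replicate 2 (0.315), and the Pak4 call held in 6 of the 16 settings run, the reported one included. The count of 2 became 98 without Vehicle replicate 2, 5 without Day0 replicate 1, 1 without either 6MP replicate and 0 without CER replicate 2; for 6MP, 0 became 216 without Vehicle replicate 2.

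The direct test of 6MP against CER called 0 regions (0.0%), with 3180 (9.37%) at an unadjusted p under 0.05 by limma. At Thap12 6MP was 1.08 ± 0.22 above CER (adjusted p = 0.14) and at Pak4 0.99 ± 0.23 (0.14), so neither difference between the inhibitors passed. The count of 0 became 226 without Vehicle replicate 2, 7 without Day0 replicate 1, 2 without Day0 replicate 2 and 1 without Vehicle replicate 1. Controls enter this test only through its error. Leaving one out therefore changed the error and not the differences between the inhibitors, whose median stayed at -0.03. The lowest adjusted p was 0.0635, at a region within Dnmt3a, a DNA methyltransferase often altered in leukaemia, picked after its values were seen. At chr12:3855579-3856630 it held 0.58, 0.56, 0.45 and 0.99 without drug, 1.06 and 0.80 in 6MP, and -0.10 and -0.16 in CER. CER lay below all the other libraries, and 6MP lay within or just above the controls.

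For 6MP the lowest p values, also picked after the values were seen, were at Arhgef7 (0.86 ± 0.16, given above) and within Lgmn, a lysosomal protease of macrophages, at chr12:102426183-102426828. Lgmn held -0.79, -0.76, -0.66 and -0.38 without drug, 0.00 and 0.54 in 6MP, and -0.40 and -0.38 in CER. Both 6MP libraries were above all others (0.92 ± 0.18; limma, adjusted p = 0.43).

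The counts depended on which controls were used. Against Vehicle alone 1 region (0.00295%) was called by limma for both inhibitors together, and against Day0 alone 93 (0.274%), 59 higher and 34 lower. Day0 and the inhibitor libraries also differ by 2 days of culture, so drug and time cannot be told apart in the second count. For 6MP alone the count was 0 (0.0%) against Vehicle and 436 (1.29%) against Day0, 270 higher and 166 lower. For CER alone it was 108 (0.318%) against Vehicle, 44 higher and 64 lower, and 188 (0.554%) against Day0, 74 higher and 114 lower. The 1 region called for both inhibitors against Vehicle, near Tet2, which encodes an enzyme that oxidises methylated DNA, at chr3:133435873-133437319 held -1.49 and -1.51 in Day0, -2.63 and -2.57 in Vehicle, -1.36 and -1.46 in 6MP and -1.15 and -0.64 in CER. Vehicle was low there, and Day0 lay close to the inhibitor libraries.

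Fits that model the groups or libraries otherwise called a few regions. With a mean for each of the 4 groups, limma called 7 (0.0206%): Zmiz1, Zpld1, Dagla, Trub2 and Arhgef7 higher, and Thap12 and Mapre2 lower, all given above. With all 12 libraries in the fit it called 22 of 33368 (0.0659%), 19 higher and 3 lower, which include those 7. The same fit called 4 (0.012%) for 6MP, all higher, and 156 (0.468%) for CER, 52 higher and 104 lower. With the letter in the library name, which is P, R or none, as a block it called 6 (0.0177%), all higher, near or in Tet2, Gm9376, Pacsin1, Dusp2, Kcnh7 and Fblim1. Only Day0 libraries have a P, so this fit compares the inhibitors with Vehicle alone. With missing values filled it called 4 of 47547 (0.00841%), at Ralgds, Tmem86a, Brd2 and Msi2. Each has peaks in 1 set only, so the fill itself makes that difference, and these calls add nothing to the peak calls given above.

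Without Vehicle replicate 2, 60 regions (0.177%) passed, 34 higher and 26 lower, while leaving out any other library gave 0. Of the 26, 16 lay at promoters or gene ends, as did 0 of the 34 and 31.3% of all regions tested. Leaving that library out chose these regions, so its own values there are fixed in part by the choice and are a description. At the 26, the median signals were 0.82 and 0.78 in Day0, 0.46 and -0.54 in Vehicle, -0.26 and 0.20 in 6MP, and 0.48 and -0.17 in CER. The low libraries at the 26, Vehicle replicate 2, 6MP replicate 1 and CER replicate 2, have no letter after their number in the deposited names, whereas Vehicle replicate 1, 6MP replicate 2 and CER replicate 1 have an R and both Day0 libraries a P. At the 34 higher calls the medians did not follow the letters in the same way: they were -0.15 without a letter and 0.21 with R in 6MP, and 0.09 without and -0.14 with R in CER. What the letters stand for is not given in the sources used here, and their part in these values was not tested.

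The promoters of Aff3 and Pitpnm2 show this pattern and are printed because their windows are rich in CpG, marked by capitals. Aff3, a protein of a transcription elongation complex, lies on the minus strand at chr1:38627195-38627494, and Pitpnm2, a phosphatidylinositol transfer protein, on the minus strand at chr5:124249711-124250010 (GRCm38.p6, RefSeq).
Aff3: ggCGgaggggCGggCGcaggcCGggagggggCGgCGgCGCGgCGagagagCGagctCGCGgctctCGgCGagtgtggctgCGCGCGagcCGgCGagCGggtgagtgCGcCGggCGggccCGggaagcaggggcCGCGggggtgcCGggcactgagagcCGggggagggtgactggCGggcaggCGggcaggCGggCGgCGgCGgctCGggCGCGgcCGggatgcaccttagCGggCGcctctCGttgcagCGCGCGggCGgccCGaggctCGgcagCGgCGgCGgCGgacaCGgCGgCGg
Pitpnm2: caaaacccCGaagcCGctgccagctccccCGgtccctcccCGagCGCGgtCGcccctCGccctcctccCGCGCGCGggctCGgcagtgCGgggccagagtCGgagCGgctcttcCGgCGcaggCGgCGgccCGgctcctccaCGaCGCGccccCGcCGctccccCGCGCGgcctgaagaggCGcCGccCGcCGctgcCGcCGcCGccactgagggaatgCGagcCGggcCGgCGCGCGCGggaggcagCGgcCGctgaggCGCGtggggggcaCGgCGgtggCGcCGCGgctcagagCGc
Aff3 held 54 CpG and Pitpnm2 53, beside a median of 13 over all windows; 95.4% of windows held at least 1. At the Aff3 promoter the signals were 0.99 and 0.63 in Day0, 0.81 and -1.05 in Vehicle, -0.47 and 0.44 in 6MP, and 0.68 and -0.66 in CER. At Pitpnm2 they were 0.78 and 0.88, 0.47 and -0.83, -0.42 and 0.11, and 0.53 and -0.69 in the same order. In both, the gap between replicates of Vehicle exceeded the gap between the sets, -0.35 ± 0.28 and -0.44 ± 0.25 (SE). Both were picked for this pattern, so that gap follows in part from the choice, and a link to CpG was not tested.

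Promoter signal by GC content gave a less uniform picture. Promoters were put in 4 GC classes of near equal size. In the class with the highest GC, 68 to 88%, the library without a letter differed from its R partner by a median of -0.15 in Vehicle, -0.48 in 6MP and 0.06 in CER. In the lowest class, 32.3 to 55.3%, these medians were -0.05, -0.15 and 0.07. The difference between inhibitor and no drug stayed near 0 in all 4 classes, 0.03 to 0.04. This pools the inhibitors: over the 8623 promoter regions the median difference was -0.03 for 6MP and 0.09 for CER. The median of 6MP minus CER there was -0.12. The 6MP replicates differed, with a median promoter signal of 1.281 in replicate 1 and 1.604 in replicate 2. CER held 1.585 and 1.634, and the controls ran from 1.394 to 1.57. Only 6MP replicate 1 lay below the controls, so the negative medians are not shown to hold for both 6MP replicates.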

How the data were processed

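ATAC-seq peak lists of 12 mouse libraries were deposited, 1 per library, of which 8 are compared here. The build was mm10. The submitters' processing notes list, with no order or settings, MACS2 2.1.2 as peak caller, Bowtie2 as aligner, Trimmomatic 0.38 for trimming, DiffBind, and both Picard 2.18.26 and SAMtools 1.9. Per the file headers, the authors' lists give each peak a fold enrichment (a ratio to local background), a −log10 p-value, a −log10 q-value and a score. No read counts or total depths are used.

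The summit pileup was recovered from the deposited fold and −log10 p-value, and was a whole number at all summits within 0.001 on the −log10 scale. Log2 of pileup over the smallest background of the library was centred on its median over shared regions. Peaks were merged into regions, assigned to the nearest gene and tested with limma 3.58.1 (trend, Benjamini-Hochberg threshold 0.05) in R 4.3.3, with Python 3.11.15, numpy 2.4.6, pandas 2.3.3 and scipy 1.17.1 for the rest. The fit was tested on simulated data. In the main test of both inhibitors together, the error is the spread within each set. It includes differences between the inhibitors and between Day0 and Vehicle, as well as between the biological replicates the labels name. Day0 and Vehicle also form a joint control set in the main tests of each inhibitor. The fit with 4 group means uses the spread between replicates only. For both inhibitors together it called 7 regions, against 0 in the main test. Regions named are, among those whose sets do not overlap, the 15 lowest p in each direction. Also named are those called, the drug-related promoters and the lowest p in each direction of each list. Members and lists were chosen with earlier results of these data known. The authors' comparison tables were not used.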

Additional observations from a re-analysis of the deposited data

Results flagged for a closer look

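In 5 sets of 4 libraries 1 value stood apart from the other 3, by the ratio of its gap to the range; chance flags about 1 set in 20, and 100 were looked at. The promoter minus other signal was 1.67 in 6MP replicate 1, the lowest of the inhibitor libraries. Among the libraries without drug, the Zpld1 region was highest in Vehicle replicate 2, at -0.043, and the Slc9a3r1 region lowest in Day0 replicate 2, at 1.01. The Nt5c2 promoter was lowest in Vehicle replicate 2, at 1.32, and the region at an end of Scd2 highest in Vehicle replicate 1, at 2.23.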

How the results depend on the processing

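For both inhibitors together, limma called 0 regions with depth scaling, centring by intensity, quantile scaling, stricter peaks and the replicate block. It called 6 with the letter in the library name as a block (which compares with Vehicle only), 1 against Vehicle only, 93 against Day0 only, 7 with 4 group means, 22 with all 12 libraries in the fit and 4 of 47547 regions with missing values filled. For 6MP it called 436 against Day0 only, 4 with all 12 libraries and 9 with filled values. For CER it called 0 with depth scaling, 1 centred by intensity, 1 with the replicate block, 108 against Vehicle only, 188 against Day0 only, 156 with all 12 libraries and 22 filled. For 6MP against CER it called 223 with all 12 libraries, 17 filled and 0 with the replicate block. Filled counts can hold regions with peaks on 1 side only, as all 4 for both inhibitors are, where the fill makes the difference. Except where the construction differs (fewer or other libraries), the cause was not tested. Leaving out 1 library gave 0 to 60 calls for both inhibitors, 0 to 216 for 6MP, 0 to 98 for CER, 0 to 226 for 6MP against CER, and 224 to 576 gained or lost peaks. Deviations of same-numbered replicates correlated from -0.106, Vehicle with 6MP, to 0.244, Vehicle with CER. Same-numbered Vehicle and CER libraries also match in the letter of their names, and those of Vehicle and 6MP do not. The part of the letter in these values was not tested. Scaling by depth only moved the median of all regions by -0.27, and 6.01% rather than 53.9% were then higher with an inhibitor. Of 119 named regions, 29 changed sign under some alternative, and 0 of those had sets that did not overlap. Where the sets do not overlap, leaving out libraries cannot change the sign, so for those alternatives this 0 is fixed in advance. Weak peaks and 2 libraries per drug limit what could be detected.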
